A study of Arabidopsis thaliana with 8 samples.

Results

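The 6 arogenate dehydratase genes of Arabidopsis thaliana and the genes of the next steps in the phenylpropanoid pathway were followed in young inflorescences of 4 genotypes. The set held ADT1 (AT1G11790), ADT2 (AT3G07630), ADT3 (AT2G27820, named PD1 in RefSeq), ADT4 (AT3G44720), ADT5 (AT5G22630), ADT6 (AT1G08250), the phenylalanine ammonia-lyase genes PAL1 (AT2G37040), PAL2 (AT3G53260) and PAL4 (AT3G10340), and C4H (AT2G30490), which encodes cinnamate 4-hydroxylase. All 10 were measured, among 19853 genes in all. ADT4 was chosen by measured values, for its low level in libraries carrying fhy3-68, so its differences between those libraries and the others are a description and carry no test. The other 9 genes were added for their place in the pathway.

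The genotypes were the double mutant ag-10 fhy3-68, its parents ag-10 and fhy3-68, and the wild type Landsberg erecta (Ler). AGAMOUS (AG) specifies stamens and carpels, and FHY3, a DNA-binding regulator of transposase origin, works in the far-red light response. Each genotype had 2 libraries, called biological replicates in the series, made from inflorescences whose flowers had reached stage 8 at most. The lesions of the alleles, the plants' age and the number of plants in a sample are not given in the labels, and neither mutant has a second allele here. Every value below is a normalised read count on a scale of 1000000 reads, and means stand with the SD over the 2 libraries of a genotype.

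Arogenate dehydratases carry out the last step of phenylalanine synthesis in plastids, at the end of a branch that leaves the shikimate pathway at chorismate. Phenylalanine ammonia-lyase then turns phenylalanine into cinnamate, and C4H hydroxylates cinnamate on the way to lignin, flavonoids, sinapate esters and the phenolamides of the pollen coat. PAL proteins are also removed by Kelch-domain F-box proteins, which mark them for degradation. In young flowers, the tapetum, the cell layer that feeds the developing pollen, makes much of the phenolamide.

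The listed genes held between 12322061 and 16816619 reads per library, and 1 member in 1 library between 35 and 3834 reads. FHY3 mRNA lay between 103.38 and 109.81 in the libraries without fhy3-68 and between 70.48 and 93.0 in those with it, which does not check the genotype because the lesion is not given, and AG was not analysed here. All 8 flower marker genes were detected in every genotype. Their summed level was 1251.88 to 1355.44 in the libraries without fhy3-68 and 1071.68 to 1206.98 in those with it. In fhy3-68 7 of the 8 were lower than in Ler, with 4 at an unadjusted p under 0.05. There limma and edgeR called 0, and DESeq2 called 2 (SEP1 and SEP2). In the double mutant 7 were also lower than in Ler. The exception was SEP3, at 1.286 of its Ler mean, which limma and DESeq2 called higher and edgeR did not call. The part of these markers in the results below was not tested. The fhy3-68 libraries differed more from each other than the replicates of the other genotypes did, with a chi-square per degree of freedom of 27.6 against 4.73 in Ler, 12.3 in ag-10 and 12.2 in the double mutant. Bulk RNA cannot tell fewer cells of a type from less RNA per cell, which holds for all levels below.

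ADT4 had the widest relative range of the set, with its highest library at 8.82 times its lowest. Its level was 60.6 and 35.15 in the Ler libraries, while ag-10 gave 37.8 and 51.09, fhy3-68 gave 13.28 and 8.43, and the double mutant gave 9.52 and 6.87. The 4 libraries with fhy3-68 lay below the 4 without it and did not overlap them, while the Ler libraries differed from each other by more than the ag-10 libraries did. The means were 47.9 ± 18.0 in Ler, while ag-10 gave 44.4 ± 9.40, fhy3-68 gave 10.9 ± 3.43, and the double mutant gave 8.20 ± 1.87. The fhy3-68 mean was 0.227 of that in Ler, and the double mutant mean was 0.171 of that in Ler and 0.184 of that in ag-10. On the log2(value + 0.5) scale these differences were -2.07, -2.44 and -2.37. The low levels still rested on 307 reads in fhy3-68 and 255 in the double mutant, against 1297 in Ler and 1203 in ag-10. ADT4 overlaps no other gene model in the reference annotation.

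The effect of ag-10 on ADT4 was not itself the ground for the choice. The choice did use the ag-10 and double mutant libraries, since every library with fhy3-68 lay below every library without it. That pattern favours genes with little difference due to ag-10, so the comparisons here are not independent of the choice. They cannot decide whether ag-10 affects ADT4. ADT4 differed by -0.07 on the log2 scale between ag-10 and Ler (SE 0.318, 95% interval -0.81 to 0.67), with a limma adjusted p = 1. Between the double mutant and fhy3-68 it differed by -0.37 (SE 0.318, 95% interval -1.11 to 0.38), again with an adjusted p = 1. Both intervals take in changes of either sign, and the first difference turned to 0.32 without Ler replicate 1 and to 0.14 without ag-10 replicate 1.

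**Figure D1:**
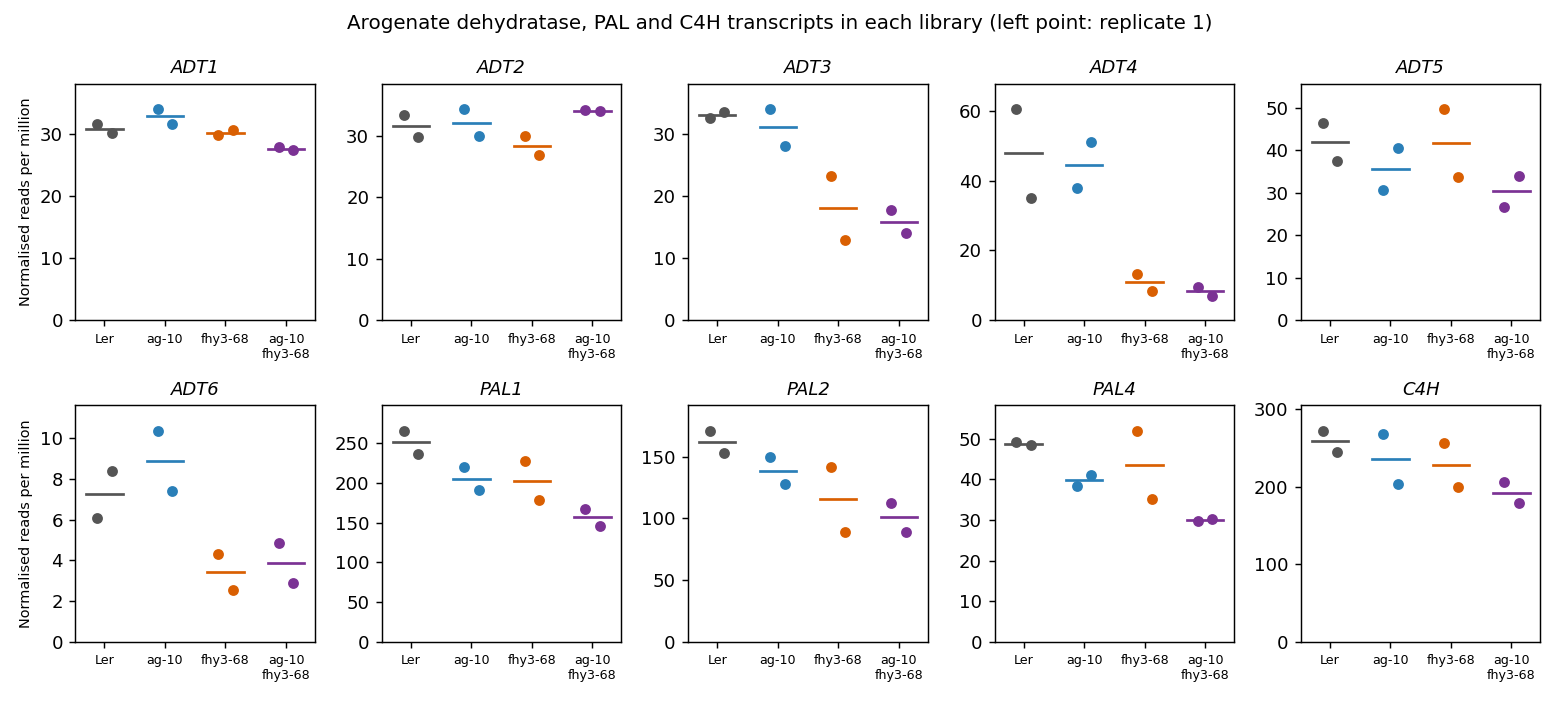
Level of each of the 10 genes in each library, as normalised reads on a scale of 1000000, on a linear axis from 0. Points are libraries, with replicate 1 on the left, and bars are the means of 2. ADT4, ADT3 and ADT6 are the members whose 4 fhy3-68 libraries all lie below the 4 others. ADT4 was chosen for this pattern, which 12.9% of all genes showed.

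ADT3, which in seedlings supplies phenylalanine for ultraviolet-absorbing compounds, and ADT6 came next in the size of their difference. ADT3 stood at 32.57 and 33.48 in Ler, while ag-10 gave 33.99 and 28.03, fhy3-68 gave 23.21 and 12.82, and the double mutant gave 17.67 and 14.05. Its 4 libraries with fhy3-68 were all below the 4 without, with 23.21 the highest of the former and 28.03 the lowest of the latter. The ADT3 mean in fhy3-68 was 0.545 of that in Ler, and the log2 difference was -0.92 (SE 0.258, 95% interval -1.52 to -0.31, limma adjusted p = 0.0923). In the double mutant ADT3 differed by -1.04 from Ler (SE 0.258, limma adjusted p = 0.0654) and by -0.95 from ag-10 (SE 0.258, limma adjusted p = 0.108). None of these passed the threshold of 0.05 in limma, and DESeq2 on the recovered reads called all 3, with adjusted p of 0.0269, 0.00401 and 0.0151, in comparisons where it called 7.47%, 8% and 5.37% of all genes.

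ADT6 was the member with the fewest reads, with 192 (Ler), 244 (ag-10), 97 (fhy3-68) and 119 (double mutant). Its levels were 6.1 and 8.41 in Ler, while ag-10 gave 10.37 and 7.43, fhy3-68 gave 4.33 and 2.52, and the double mutant gave 4.83 and 2.87. The groups with and without fhy3-68 did not overlap, with 4.83 the highest of one and 6.1 the lowest of the other. The log2 difference was -1.01 in fhy3-68 against Ler (SE 0.328, limma adjusted p = 0.125), -0.86 when the double mutant was set against Ler (limma adjusted p = 0.167) and -1.13 against ag-10 (limma adjusted p = 0.12), and none was called. ADT6 overlaps another gene model, AT1G08260, whose reads may not have been told apart from its own.

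Over all genes, 12.9% had the 4 fhy3-68 libraries below the 4 others, and 14.3% had them above. ADT4 was chosen for this pattern, and 2 of the other 9 members showed it. Without fhy3-68 replicate 1 the count of members, ADT4 included, went from 3 to 6, and the share of all genes from 12.9% to 20.2%.

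ADT1, ADT2 and ADT5 had the smallest log2 differences of the set in fhy3-68 against Ler. ADT1 lay between 29.85 and 34.07 in the libraries of Ler, ag-10 and fhy3-68 and at 27.87 and 27.5 in the double mutant. ADT2, whose protein also takes part in chloroplast division, lay between 26.87 and 34.42 over all 8 libraries, and its fhy3-68 and Ler values overlapped. The log2 difference between fhy3-68 and Ler was -0.03 for ADT1 (95% interval -0.24 to 0.18, limma adjusted p = 0.871) and -0.15 for ADT2 (95% interval -0.42 to 0.11, limma adjusted p = 0.434). The double mutant differed from Ler by -0.16 for ADT1 (limma adjusted p = 0.318) and 0.11 for ADT2 (limma adjusted p = 0.584), and from ag-10 by -0.24 (limma adjusted p = 0.182) and 0.09 (limma adjusted p = 0.691). ADT1 overlaps the gene model AT1G11800.

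ADT5 is the closest relative of ADT4 among the dehydratases. It stood at 46.33 and 37.37 in Ler, while ag-10 gave 30.68 and 40.59, fhy3-68 gave 49.71 and 33.78, and the double mutant gave 26.71 and 34.01. The fhy3-68 values spanned those of Ler, with a log2 difference of -0.02 (SE 0.227, 95% interval -0.55 to 0.51, limma adjusted p = 0.963). ADT5 in the double mutant differed by -0.46 from Ler (limma adjusted p = 0.256) and by -0.22 from ag-10 (limma adjusted p = 0.608). The log2 ratio of ADT4 to ADT5 within a library, which any scaling of the library leaves as it is, was 0.387 and -0.088 in Ler, while ag-10 gave 0.301 and 0.332, fhy3-68 gave -1.904 and -2.003, and the double mutant gave -1.488 and -2.308. The ratio was lower in the 4 fhy3-68 libraries than in the 4 others, which follows from the choice of ADT4 where ADT5 differs little and is no independent result.

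PAL1, PAL2, PAL4 and C4H had their lowest means in the double mutant. PAL1, which with PAL2 provides most ammonia-lyase activity for flavonoids and lignin, stood at 265.66 and 236.05 in Ler, while ag-10 gave 219.56 and 190.41, fhy3-68 gave 227.37 and 178.58, and the double mutant gave 166.99 and 146.02. Both double mutant libraries lay below the 6 others. PAL1 fell to 0.624 of its Ler mean in the double mutant, a log2 difference of -0.68 (SE 0.143, 95% interval -1.01 to -0.34, limma adjusted p = 0.0465). It was the 1 member of the 9 called in that comparison, in which 1.85% of all genes were called lower and 2.48% higher. Of the 9, 8 were lower, with a median of -0.68, and 6 had an unadjusted p under 0.05, all of them lower, where 24.6% of all genes passed that mark and 11.3% passed it as lower. The call sat near the threshold. It was lost with edgeR (adjusted p = 0.0513), in limma without the intensity trend (0.0795), and on leaving out any single library of Ler (0.274 and 0.202 for replicates 1 and 2), ag-10 (0.0622 and 0.0615) or the double mutant (0.149 and 0.19).

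PAL2 stood at 171.15 and 153.45 in Ler, while ag-10 gave 149.45 and 127.91, fhy3-68 gave 141.93 and 88.96, and the double mutant gave 112.62 and 89. The double mutant lay below Ler and ag-10, and the lower fhy3-68 library lay beside it. The double mutant mean was 0.621 of that in Ler, a log2 difference of -0.69 (SE 0.219, limma adjusted p = 0.113). PAL4 stood at 49.1 and 48.32 in Ler, while ag-10 gave 38.44 and 40.98, fhy3-68 gave 51.95 and 35.08, and the double mutant gave 29.7 and 30.13. Its replicates lay close together except in fhy3-68, where they spanned the Ler values. In the double mutant PAL4 was at 0.614 of its Ler mean, a log2 difference of -0.69 (SE 0.166, limma adjusted p = 0.0615). DESeq2 called PAL1 (adjusted p = 0.000907), PAL2 (0.0234), PAL4 (0.0128) and ADT3 in this comparison, 4 of the 9 members, and 8% of all genes in either direction.

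C4H encodes the membrane-bound cytochrome P450 that follows PAL. It stood at 272.05 and 244.46 in Ler, while ag-10 gave 267.66 and 203.81, fhy3-68 gave 256.24 and 199.97, and the double mutant gave 205.32 and 178.6. The double mutant libraries overlapped those of ag-10 and fhy3-68, and the log2 difference from Ler was -0.43 (SE 0.169, limma adjusted p = 0.175). PAL3 (AT5G04230), the remaining PAL gene and the one named here after its values were seen, differed the other way. It stood at 18.4 ± 2.04 in Ler, while ag-10 gave 17.5 ± 2.62, fhy3-68 gave 27.7 ± 5.20, and the double mutant gave 26.6 ± 1.58, with log2 differences from Ler of 0.57 (limma adjusted p = 0.101) and 0.52 (limma adjusted p = 0.116) that were not called.

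**Figure D2:**
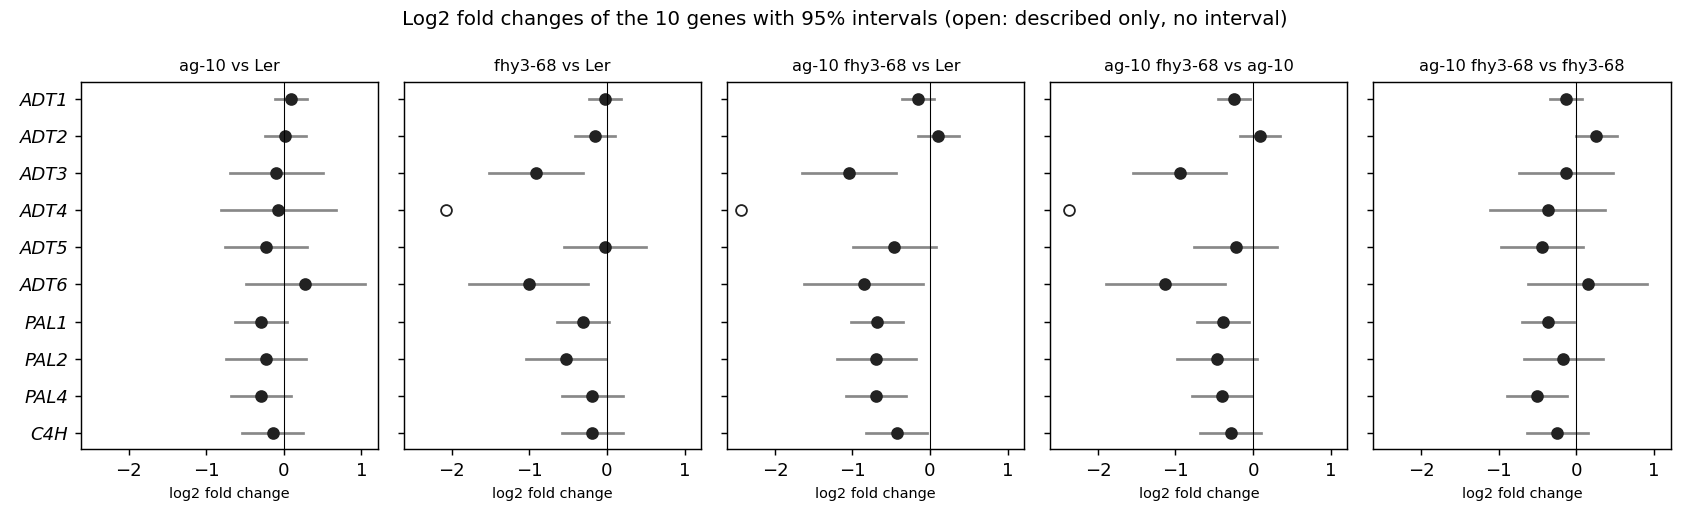
Log2 fold changes on the log2(value + 0.5) scale in 5 comparisons, with lines for 95% intervals of the limma fit. Open circles mark ADT4 where it was chosen for its difference, drawn without an interval. In the comparison of the double mutant with Ler, PAL1, PAL2 and PAL4 lie near each other between -0.68 and -0.69.

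In fhy3-68 against Ler, ADT4 aside, 0 of 9 members were called by limma, where 0.786% of all genes were called lower and 2.26% higher. All 9 had a lower mean on the log2 scale, with a median of -0.19, while 52.1% of all genes were lower, with a median of -0.015. At an unadjusted p under 0.05 there were 3 (ADT3, ADT6 and PAL2), all lower. Of all genes, 24.4% passed that mark and 10.5% passed it as lower. Of the 9, edgeR called 0 and DESeq2 called 1, where they called 2.57% and 7.47% of all genes. The differences of PAL1 (-0.31, limma adjusted p = 0.231), PAL2 (-0.53, 0.195), PAL4 (-0.19, 0.523) and C4H (-0.19, 0.528) were all smaller than those of ADT3 and ADT6.

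The 2 fhy3-68 libraries bear on these values. In replicate 2, 9 of the 10 members were lower than in replicate 1, and 8 were under 0.8 of it, whereas 49.8% of all genes were lower. The ratio of replicate 2 to replicate 1 was 0.552 for ADT3, 0.582 for ADT6, 0.627 for PAL2 and 0.635 for ADT4, and 1.03 for ADT1. With replicate 1 left out, limma called 4 of the 9 members against Ler, which were ADT3 (adjusted p = 0.00923), ADT6 (0.0459), PAL2 (0.0196) and PAL4 (0.0207). That fit called 17.1% of all genes, in either direction. With replicate 2 left out it called none of the 9 and 0.66% of all genes, and PAL4 turned to a log2 difference of 0.09.

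Against ag-10, where the double mutant shows the effect of fhy3-68 in that background, 0 of 9 members were called by limma. The shares called over all genes were 0.509% lower and 0.992% higher. Of the 9, 8 were lower, with a median of -0.39, and 50.7% of all genes were lower, with a median of -0.004. There were 5 with an unadjusted p under 0.05 (ADT1, ADT3, ADT6, PAL1 and PAL4), all lower. That mark was passed by 21.1% of all genes, and by 9.31% as lower. Of the 9, edgeR called 0 and DESeq2 called 1, where they called 1.04% and 5.37% of all genes. PAL1 was at 0.763, PAL2 at 0.727, PAL4 at 0.753 and C4H at 0.814 of the ag-10 mean. This comparison shares the double mutant libraries with the comparison to Ler, and that one shares the Ler libraries with fhy3-68 against Ler, so their values are not independent.

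In ag-10 against Ler, 0 of the 10 members were called by limma, edgeR or DESeq2, and 0 had an unadjusted p under 0.05, in a comparison in which 0.00504% of all genes were called. PAL1 had the lowest unadjusted p, at 0.0786, with a log2 difference of -0.29, and PAL2 (-0.23), PAL4 (-0.29) and C4H (-0.14) also had lower means. Comparing the double mutant with fhy3-68, limma, edgeR and DESeq2 called 0 of the 10, and limma called 0% of all genes. The unadjusted limma p was under 0.05 for PAL4 (-0.51, 0.0176), PAL1 (-0.37, 0.0357) and, at the border, ADT2 (0.26, 0.05), and each had an adjusted p = 1. Of all genes, 2.15% had an unadjusted p under 0.05 there.

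Whether the effect of fhy3-68 depended on ag-10 was tested as the interaction, the log2 effect in the ag-10 background minus that in Ler. It called 0.00504% of all genes and 0 of the 9 members, with 0 at an unadjusted p under 0.05 and 0 called by edgeR or DESeq2. The 9 had unadjusted p between 0.129 and 0.931 in limma. For ADT4 the interaction value was -0.30. In 8 of the 10 genes its sign turned when 1 library was left out.

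The enzymes upstream of the dehydratases, and those of the tyrosine and tryptophan branches beside them, showed no calls. Of the 10 genes of the shikimate pathway, 6 from chorismate to arogenate and tyrosine, and 10 of the tryptophan branch, 0 were called by limma, edgeR or DESeq2 in any comparison. In fhy3-68 against Ler the median log2 difference was -0.13 for the shikimate genes, -0.24 for the genes from chorismate to arogenate and tyrosine, and -0.06 for the tryptophan branch. An unadjusted p under 0.05 was reached there by 1 gene in each of the 3 lists. The medians for the double mutant against Ler were -0.09, -0.17 and -0.10, with 4, 1 and 3 genes at an unadjusted p under 0.05.

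The list of later phenylpropanoid and monolignol genes also held PAL3, which acts before C4H, and the P450 reductase genes ATR1 and ATR2. Of its 17 genes, 0 were called by limma or edgeR in any comparison. In fhy3-68 against Ler 12 of them were lower, 5 had an unadjusted p under 0.05, and the median was -0.23. PAL3, ATR1 and ATR2 were among the higher ones, at 1.505, 1.321 and 1.054 of their Ler means. Flavonoid enzymes, 7 of 8 listed ones analysed, had a median of -0.67, with 5 lower and 2 at an unadjusted p under 0.05, and 0 were called. Against ag-10 the medians of these lists were -0.16 and -0.73, also with 0 called. Of 15 regulators of the pathway 13 were analysed and 0 were called, with a median of -0.23 and 2 at an unadjusted p under 0.05 in fhy3-68 against Ler. DESeq2 called 4CL3, a coenzyme A ligase, in all 3 comparisons that involve fhy3-68 and either Ler or ag-10, COMT1, a methyltransferase of monolignol synthesis, in the double mutant against Ler, and CHS, the chalcone synthase, and MYB111, a flavonol regulator, in both double mutant comparisons. These were named after their values were seen. Their limma log2 differences between the double mutant and Ler were -1.18 for 4CL3, -0.77 for COMT1, -0.87 for CHS and -0.85 for MYB111. As lignin forms in xylem, xylem markers are given beside these lists. Their 7 genes, with 0 called by limma, edgeR or DESeq2 and at most 1 at an unadjusted p under 0.05 in a comparison, summed to 107.98 and 120.12 in Ler, while ag-10 gave 99.59 and 99.88, fhy3-68 gave 74.84 and 164.16, and the double mutant gave 78.43 and 101.07, and none was at 0 in both libraries of a genotype. Their part in the levels of PAL, C4H and the monolignol genes was not tested.

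**Figure D3:**
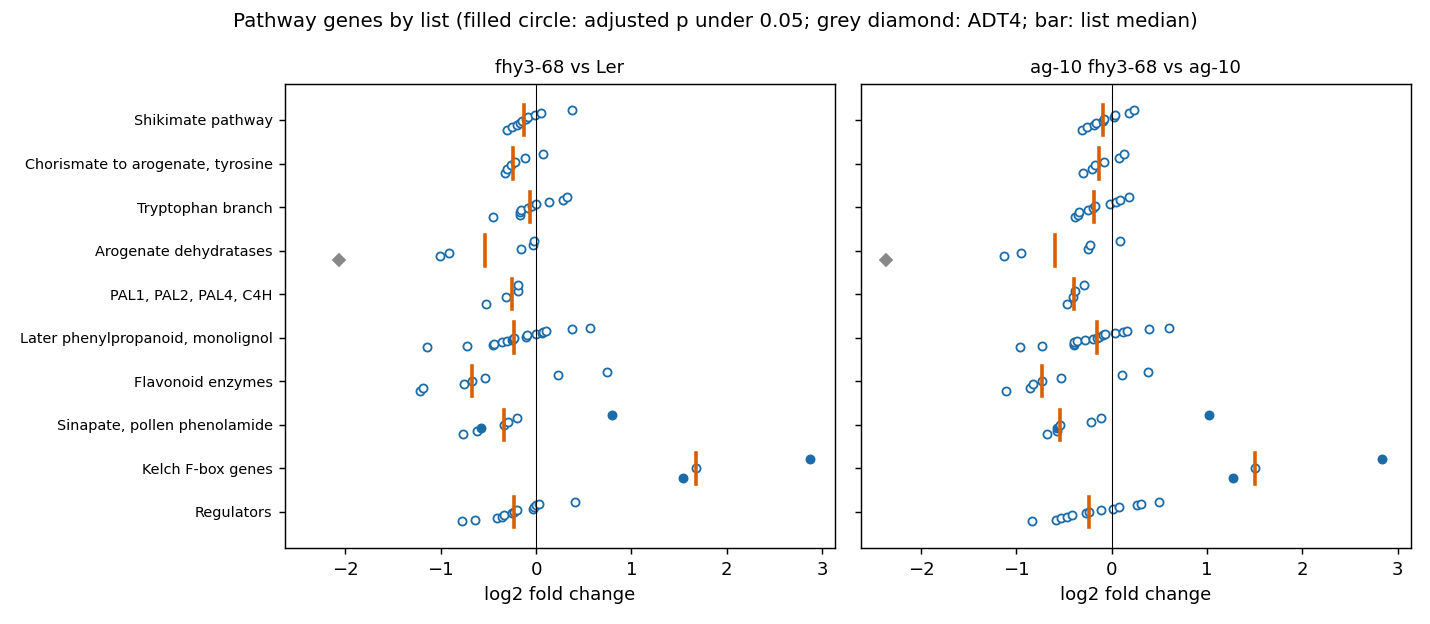
Log2 fold change of each pathway gene, by list, in fhy3-68 against Ler (left) and for the double mutant against ag-10 (right). Filled circles passed the limma threshold, open circles did not, the grey diamond is ADT4, which is described only, and the bar is the list's median. The filled circles lie among the Kelch F-box genes and among the sinapate and phenolamide genes.

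Genes for sinapate esters and pollen phenolamides held calls in both directions. SNG1, which moves sinapate onto malate, rose from 45.34 and 54.03 in Ler, and 45.35 and 44.58 in ag-10, to 80.47 and 93.21 in fhy3-68 and to 105.35 and 79.98 with both mutations, with no overlap. Its log2 difference from Ler was 0.80 in fhy3-68 (SE 0.151, limma adjusted p = 0.0425) and 0.88 in the double mutant (limma adjusted p = 0.034), and 1.02 against ag-10 (limma adjusted p = 0.0355). SHT, the spermidine hydroxycinnamoyl transferase of the tapetum, was at 166.61 and 154.17 in Ler, while ag-10 gave 122.86 and 116.04, fhy3-68 gave 108.44 and 105.97, and the double mutant gave 75.92 and 84.76. SHT fell by 0.58 on the log2 scale in fhy3-68 (limma adjusted p = 0.0314) and by 0.99 in the double mutant (limma adjusted p = 0.00822) against Ler, and by 0.57 against ag-10 (limma adjusted p = 0.0383).

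In ag-10 against Ler all 7 genes in that list were lower, with a median of -0.34 and 0 called. There 3 had an unadjusted limma p under 0.05, a mark passed by 1.8% of all genes. Limma called 1 higher and 1 lower in fhy3-68 against Ler. In the double mutant against Ler 1 was called higher and 5 lower, with a median of -0.59. Of all genes, 2.48% were called higher and 1.85% lower in that comparison. The called decreases beside SHT included those of CYP98A9, a cytochrome P450 of pollen phenolamide synthesis (-1.02, limma adjusted p = 0.0371), and REF1, the aldehyde dehydrogenase that yields sinapate and ferulate (-0.59, limma adjusted p = 0.0374). SHT, CYP98A9 and REF1 overlap other gene models. Tapetum markers moved with these genes. Their 11 genes were all lower in fhy3-68 and in the double mutant against Ler. Of these, limma called 1 (CYP703A2, -0.81) and 3 (CYP703A2, -1.17, CYP704B1, -1.1, and A9, -0.89), and DESeq2 called 4 and 5. They summed to between 2543.65 and 2820.74 in Ler and between 2271.25 and 2273.16 in ag-10. The sums were between 1685.7 and 1980.35 in fhy3-68 and between 1362.41 and 1954.66 in the double mutant. Mature pollen markers, 5 genes with 0 called by any of the 3 tools and at most 1 at an unadjusted p under 0.05 in a comparison, summed to between 4.23 and 28.25 without fhy3-68 and between 18.29 and 100.58 with it. No marker of either list was at 0 in both libraries of a genotype, and their part in the decreases was not tested.

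The Kelch F-box genes that control PAL protein had log2 differences of the opposite sign to those of PAL1, PAL2 and PAL4 in every comparison of fhy3-68 libraries with Ler or ag-10. PAL3, the remaining PAL gene, differed in the same direction as the Kelch genes. Its mean was 1.505 of Ler in fhy3-68, and 1.444 of Ler and 1.523 of ag-10 in the double mutant. The Kelch genes are also known to act in the cytokinin response, and 3 of the 4 listed were analysed. KFB20 (AT1G80440) rose from 9.08 and 6.98 in Ler and 5.5 and 9.8 in ag-10 to 37.2 and 101.5 in fhy3-68 and to 50.63 and 61.27 with both mutations. KFB50 (AT3G59940) rose from 34.06 and 32.53 in Ler and 35.76 and 37.84 in ag-10 to 82.99 and 114.83 in fhy3-68 and to 107.72 and 74.06 with both mutations. For both genes every library with fhy3-68 lay above every library without it. The log2 difference of KFB20 was 2.87 in fhy3-68 against Ler (SE 0.449, limma adjusted p = 0.0327), 2.73 when the double mutant was set against Ler (0.0321) and 2.84 against ag-10 (0.0395). For KFB50 these were 1.54 (SE 0.2, limma adjusted p = 0.0245), 1.41 (0.0229) and 1.27 (0.0395). KFB50 overlaps other gene models.

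KFB01 (AT1G15670) had the same order without passing the test. It stood at 12.49 and 8.89 in Ler, while ag-10 gave 11.43 and 12.25, fhy3-68 gave 20.77 and 57.99, and the double mutant gave 36.02 and 32.82. Its log2 differences were 1.68 (limma adjusted p = 0.0689), 1.66 (0.0655) and 1.5 (0.11) in the same 3 comparisons, and DESeq2 called each, with adjusted p of 5.35e-05, 0.000417 and 0.00219. In fhy3-68 all 3 Kelch genes were higher in replicate 2, the library in which PAL1, PAL2, PAL4 and C4H were lower. In the double mutant KFB20 was higher in replicate 2, while KFB01 and KFB50 were lower there, as were PAL1, PAL2 and C4H. PAL4 was nearly equal in the 2 double mutant libraries, at 29.7 and 30.13. Any link between the Kelch and PAL genes was not tested. The call of KFB20 against ag-10 was lost with edgeR (adjusted p = 0.051).

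The calls of KFB20, KFB50, SNG1, SHT, CYP98A9 and REF1 depended on single libraries. Without either Ler library each of them was lost, in comparisons against ag-10 too, and limma then called 1 gene in fhy3-68 against Ler, 2 in the double mutant against Ler and 3 against ag-10 over the whole table. Without fhy3-68 replicate 2 those in fhy3-68 against Ler were lost, and without double mutant replicate 1 those in the double mutant. Leaving out double mutant replicate 2 ended those of CYP98A9, REF1, KFB20 in both double mutant comparisons and SHT against ag-10, and leaving out either ag-10 library ended those of SNG1, CYP98A9 and REF1 and, against ag-10, those of SHT, KFB20 and KFB50. The adjusted p reached 0.245 at most over all of these, and no log2 difference turned sign.

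Genes of rapid response to touch and stress differed along with the Kelch genes. All 10 were higher in fhy3-68 than in Ler, with a median log2 difference of 3.13 and 9 at an unadjusted p under 0.05. Of them, limma and edgeR called 1 (CML38, 2.94 in limma). DESeq2 called 8, in a comparison where it called 7.47% of all genes. In the double mutant all 10 were higher than in Ler and in ag-10, and limma and edgeR called 0 in both comparisons. DESeq2 called 5 against Ler (8% of all genes) and 3 against ag-10 (5.37%). With the lower library first and not in replicate order, the 10 genes summed to 170.19 and 338.8 in Ler and to 126.38 and 426.76 in ag-10. They summed to 1279.89 and 1543.95 in fhy3-68 and to 699.99 and 1363.94 in the double mutant. None was at 0 in both libraries of a genotype, and their part in the levels of the Kelch, ADT and PAL genes was not tested.

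**Figure D4:**
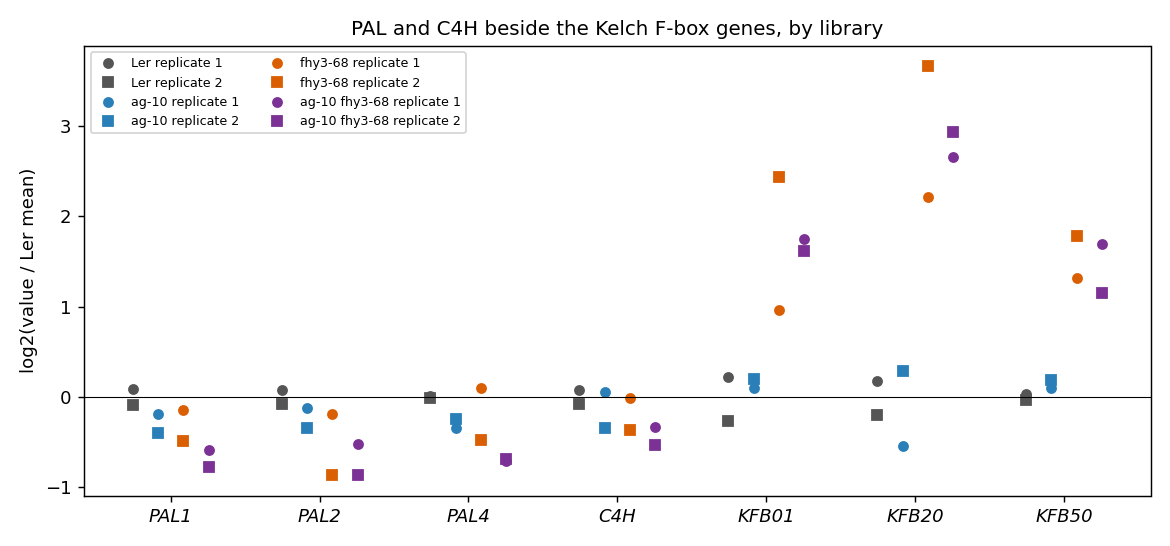
Level of PAL1, PAL2, PAL4, C4H and 3 Kelch F-box genes in each library as the log2 ratio to the Ler mean, with circles for replicate 1 and squares for replicate 2. PAL3 is not drawn. In fhy3-68 the square lies below the circle for the 4 enzyme genes and above it for the 3 Kelch genes. In the double mutant the square lies below the circle for PAL1, PAL2, C4H, KFB01 and KFB50, and above it for KFB20 and slightly for PAL4.

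Likeness to ADT4 was measured as the root mean square difference between log2 profiles over the 8 libraries, each centred on its own mean. Over all genes the closest were AT3G47010 (0.268), ALDH3H1 (0.284), which encodes an aldehyde dehydrogenase, AT5G11930 (0.294), DBE1 (0.296), which encodes a starch debranching enzyme, and AT2G40820 (0.308). ALDH3H1 averaged 79.4 (Ler), 73.7 (ag-10), 21.4 (fhy3-68) and 18.0 (double mutant). DBE1 averaged 72.1, 67.9, 17.4 and 16.5 in the same order. For all 5 the 4 libraries with fhy3-68 lay below the 4 without, a pattern fixed by their choice as the profiles closest to ADT4. AT3G47010 and ALDH3H1 overlap other gene models. Within the set ADT3 was closest to ADT4 (0.707, rank 110 among all genes), followed by ADT6 (0.724, rank 131) and PAL2 (0.897, rank 758), and ADT2 was farthest (1.15, rank 9283).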

How the data were processed

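RNA-seq libraries of 4 genotypes, 2 each, were grouped by the genotype in their titles. What the authors deposited is a normalised signal for each gene: read counts over the size factor of the library, scaled to 1000000. This was worked out from the values, which came back to whole reads within 0.1 read. The table held 19853 genes, each at 1 or more in at least 2 libraries. Per the submitters' processing notes, which give no roles, the tools were edgeR 3.10.0, HTSeq 0.6.1p1, TopHat2 2.0.14 and CASAVA 1.8. The genome build, annotation, counting mode and strand setting were not given in the sources used here. Names and overlapping gene models came from RefSeq (TAIR10.1), in which 19811 identifiers (99.79%) had a match. No coordinates, sequences or gene lengths were used, so levels are compared between genotypes and not between genes.

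Each contrast was fitted in R 4.3.3 with limma 3.58.1, using log2(value + 0.5), an intensity trend and all 8 libraries (residual degrees of freedom 4, prior 3.41). Calls needed a two-sided Benjamini-Hochberg adjusted p below 0.05, adjusted over all genes. Fold changes on this scale understate the change of low genes. Alternatives were pseudocounts of 0.1 and 1, a filter at a mean of 5, library totals, no trend, the compared libraries only, a replicate block, leaving out each library, and, on the recovered reads, edgeR 4.0.16 and DESeq2 1.42.0. The scripts were tested on simulated data.

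The members, lists and tests were chosen with earlier results of these data known. Of 118 listed genes 4 were not analysed here. Named beside the members were up to 4 called genes per list and contrast, by size of change, and the 5 profiles closest to that of ADT4. The p-values set differences against the spread between libraries. As the plants behind each library are not given, that spread may be technical in part.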

Additional observations from a re-analysis of the deposited data

How the results depend on the processing

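With 2 libraries per genotype, the spread between libraries limits these results. Replicates differed by more than counting noise, with a chi-square per degree of freedom of 4.73 to 27.6. Of single-gene values, leaving out 1 library left 431 on the same side of the threshold in the same direction, weakened 69, strengthened 19 and reversed 17; the other alternatives left 574, weakened 18, strengthened 28 and reversed 0. The cause of each change was not tested, except that fewer samples leave fewer degrees of freedom. ADT4 had no threshold in the 3 comparisons it was chosen for. Its values there counted as left if they kept their sign and moved by less than the SD within genotypes. The count of genes called in ag-10 against Ler was 1, and 2 with a pseudocount of 0.1, 2 without the trend, 9 with only the libraries compared, 23 in DESeq2 and 1 to 4 leaving out a library. In fhy3-68 against Ler it was 605, and 153 without the trend, 345 with only the libraries compared, 1483 in DESeq2 and 1 to 3399 leaving out a library. In the double mutant against Ler it was 859, and 297 without the trend, 2917 with only the libraries compared, 1589 in DESeq2 and 2 to 2802 leaving out a library. Against ag-10 it was 298, and 67 without the trend, 504 with only the libraries compared, 1066 in DESeq2 and 1 to 1820 leaving out a library. DESeq2 called 1 gene in the double mutant against fhy3-68 (limma 0) and 3 for the interaction (limma 1, and 1 to 3 leaving out a library).

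The count of members called in fhy3-68 against Ler was 0, and 1 in DESeq2, which called 7.47% of all genes. In the double mutant against Ler it was 1, where 4.33% of all genes were called. It was 0 without the trend (1.5% of all genes) and 0 in edgeR (3.8%). It was 4 in DESeq2 (8% of all genes) and 5 with only the libraries compared (14.7%). Against ag-10 it was 0, and 1 in DESeq2, which called 5.37% of all genes. The 3 members whose fhy3-68 libraries lay below the rest, ADT4 included, became 3 to 6 leaving out a library. The count was 6 without fhy3-68 replicate 1, an alternative chosen after seeing the data. The share of all genes with this pattern went from 12.9% to between 14.4% and 20.2%, with 20.2% without fhy3-68 replicate 1. These log2 differences turned sign leaving out a library. In ag-10 against Ler the range was -0.0784 to 0.12 for ADT2, -0.23 to 0.0411 for ADT3, -0.46 to 0.32 for ADT4 and -0.34 to 0.0536 for C4H. In fhy3-68 against Ler it was -0.0634 to 0.0055 for ADT1, -0.30 to 0.25 for ADT5 and -0.47 to 0.092 for PAL4. For the double mutant it was -0.0108 to 0.19 for ADT2 against ag-10, and against fhy3-68 -0.54 to 0.29 for ADT3, -0.19 to 0.49 for ADT6 and -0.50 to 0.17 for PAL2. ADT4 kept its direction in each of the 3 comparisons it was chosen for, with -2.46 to -1.68 in fhy3-68 against Ler.

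Deviations of same-numbered libraries correlated at 0.02, 0.07 and -0.11 between Ler and the mutants, where the numbers did not pair, and at 0.17 to 0.45 between the mutants, a hint of pairing from the data that 2 libraries per genotype and the labels do not settle. With the replicate number as a block, 1849 genes and 2 members (ADT3 and PAL2) were called in fhy3-68 against Ler, 1959 genes and 5 members in the double mutant against Ler, and 927 genes and 2 members against ag-10. With the Ler numbers crossed, chosen after seeing the data, the block called 1488 genes and 4 members in the double mutant against Ler.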
